A study of Mus musculus with 15 samples.

Results

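The small GTPases of the RAB5 family, the subunits of the AP2 adaptor and the clathrin chains were followed in mouse liver, 10 genes of the 18193 genes measured. The genes are Rab5a, Rab5b, Rab5c, Ap2a1, Ap2a2, Ap2b1, Ap2m1, Ap2s1, Cltc and Clta, and they carry 20 of the 34945 probe sets with a single gene symbol. The group was selected on these same arrays, because the signals of Rab5c and Ap2b1 were low in KKAy mice and high after XKA. The changes of Rab5c and Ap2b1 between the groups are therefore given as a description. Where they are counted among called genes, the count says only on which side of the threshold they fell and supports nothing. The other 8 genes entered as the rest of the same machinery.

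XKA (Xiao-Ke-An) is a Chinese herbal medicine made from several herbs, and the arrays addressed whether its oral dosing brings liver transcripts of diabetic mice back toward those of normal mice. Liver RNA of 15 male mice, 1 array per mouse, was hybridised to Affymetrix mouse whole genome arrays. The normal group was 5 C57BL/6J mice on chow, gavaged with distilled water. The model group was 5 KKAy mice, which carry the yellow agouti allele and become obese and diabetic, on a high-fat diet and gavaged with distilled water. The treated group, XKA-H, was 5 KKAy mice on the same high-fat diet given XKA at 1.5 g/kg once daily. All 15 mice were 10 weeks old at the start, and gavage lasted 32 days in every group. KKAy and C57BL/6J mice came from different suppliers, so strain, diet and supplier cannot be told apart in any difference between them. The sources differ on the feeding state at sacrifice, which is not settled here. Each array was scaled to a median signal of 1000, and a scaled signal compares arrays for 1 probe set but not 1 gene with another. In whole liver, fewer cells of a type and less RNA per cell cannot be told apart.

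RAB5 proteins sit on early endosomes, where they recruit effectors that tether and fuse incoming vesicles. AP2 is a complex of alpha, beta, mu and sigma subunits that binds the plasma membrane and the tails of cargo receptors and gathers clathrin, whose heavy and light chains form the coat. Hepatocytes take up lipoproteins, asialoglycoproteins, transferrin and insulin by this route, and loss of RAB5 from mouse liver is known to deplete endosomes and to disturb glucose and lipid handling.

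Rab5c and Ap2b1 lie on chromosome 11, as does Cltc. The 250 bases upstream of the start site of Rab5c (RefSeq, GRCm38.p6, chr11:100738216-100738465, minus strand) and of Ap2b1 (chr11:83302447-83302696, plus strand) are shown because these genes carried the pattern on which the group was chosen. Capitals mark matches to 5 motifs searched on both strands, the cAMP response element TGACGTCA, the GC box GGGCGG, the CCAAT box, the E-box CACGTG and the TATA box TATAAA.
Rab5c: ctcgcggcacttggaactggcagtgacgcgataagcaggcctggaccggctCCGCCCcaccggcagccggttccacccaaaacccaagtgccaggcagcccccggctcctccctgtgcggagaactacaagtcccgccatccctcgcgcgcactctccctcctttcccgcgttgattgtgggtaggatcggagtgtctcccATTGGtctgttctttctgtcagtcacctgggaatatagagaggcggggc
Ap2b1: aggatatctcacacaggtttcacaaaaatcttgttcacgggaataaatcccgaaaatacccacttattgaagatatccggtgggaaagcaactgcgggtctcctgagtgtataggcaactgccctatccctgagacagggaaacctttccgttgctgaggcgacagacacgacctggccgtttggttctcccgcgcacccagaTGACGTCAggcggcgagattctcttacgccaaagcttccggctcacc
The Rab5c window held 1 GC box and 1 CCAAT box, both as their reverse complements, and the Ap2b1 window held a single cAMP response element. No motif was therefore common to both windows. Over the 10 genes, which have 11 windows because Clta has 2 start sites, the cAMP response element was found in Ap2b1 and Rab5a, against 1.55% of all 32851 windows of this length. The GC box was found in 6 genes (Rab5a, Rab5b, Rab5c, Ap2a1, Ap2a2 and Clta), against 32.7% of all windows. The CCAAT box was found in the same 6 genes, against 33.8%. The E-box was found in Rab5a and Ap2m1, against 6.02% of all windows, and the TATA box in 0 of the 10, against 12.4%. No matches overlapped each other, and a match is a description of the letters only.

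Of the RAB5 GTPases, Rab5c was low in KKAy livers. Its scaled signals were 21461, 17502, 13295, 14907 and 17260 in C57BL/6J replicates 1 to 5. They were 11665, 12578, 12224, 11314 and 8430 in the KKAy model replicates, and 22759, 25520, 24075, 20578 and 17112 in the XKA-H replicates. All 5 model arrays lay below all 5 C57BL/6J arrays and below all 5 XKA-H arrays, while XKA-H and C57BL/6J arrays overlapped. Mean signals were 16885 ± 3093 (SD, n = 5) in C57BL/6J, 11242 ± 1646 in KKAy model and 22009 ± 3286 in XKA-H mice. The log2 change between model and C57BL/6J mice was -0.58 (SE 0.148), or 0.668 of the normal signal. From model to XKA-H mice it was 0.97 (SE 0.148), a 1.96-fold difference. Between XKA-H and C57BL/6J mice it was 0.39, with a 95% interval from 0.0791 to 0.696, and it was not called over all genes (adjusted p = 0.133).

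**Figure D1:**
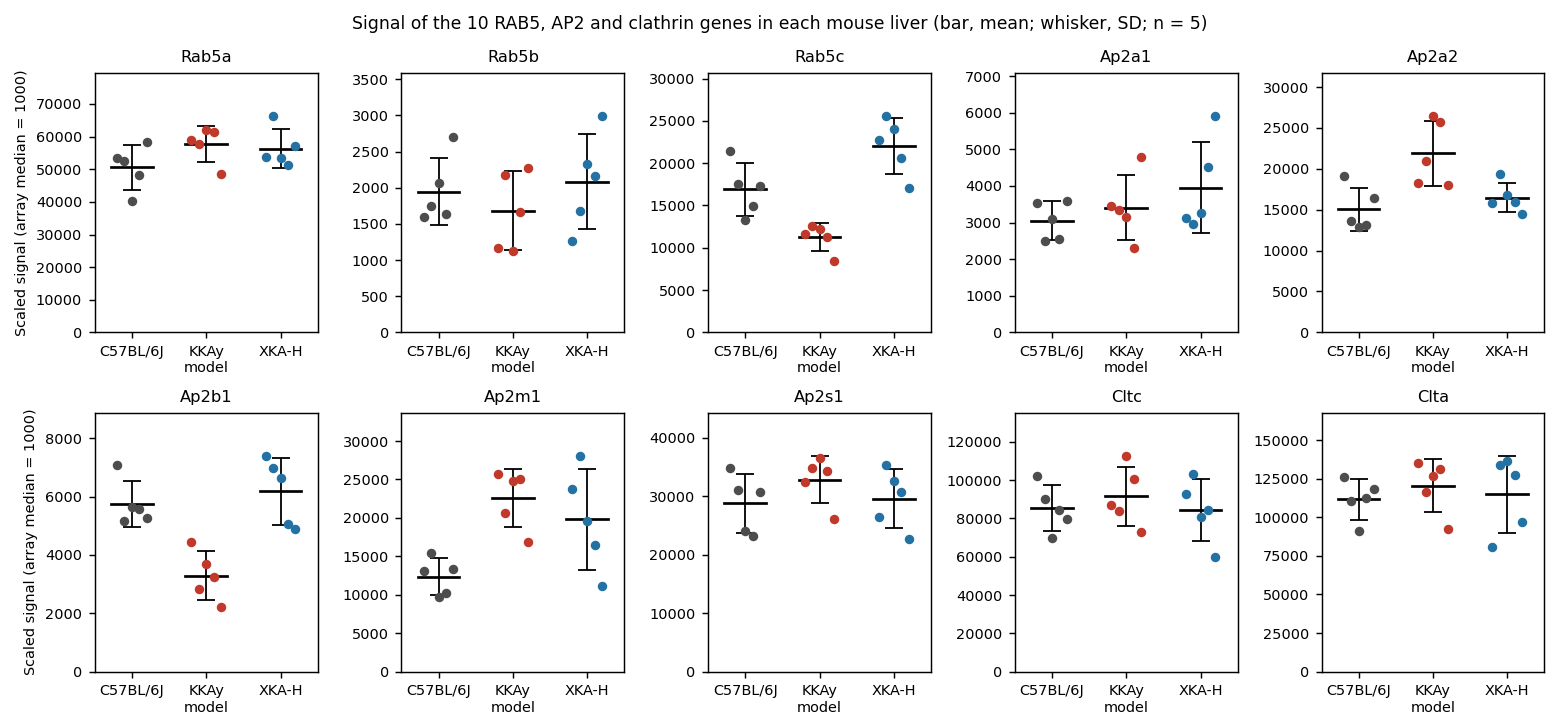
Scaled signal (y axis, array median = 1000, linear from 0) of the 10 genes in each liver, by group on the x axis. Points are mice, thick bars are means and whiskers are SDs of 5 mice. Rab5c and Ap2b1 were lower in all 5 model livers than in any other liver, and Ap2m1 was higher in all 5 model livers than in all C57BL/6J livers.

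Rab5a and Rab5b, which share the early endosome with RAB5C, gave other values. Rab5a signals averaged 50551 ± 6818 in C57BL/6J, 57757 ± 5432 in model and 56339 ± 5901 in XKA-H mice (SD, n = 5). The groups overlapped, and the log2 change between model and C57BL/6J mice was 0.20 (SE 0.119, adjusted p = 0.326). From model to XKA-H mice it was -0.04 (95% interval -0.284 to 0.212, adjusted p = 0.963). Rab5b averaged 1948 ± 457, 1684 ± 545 and 2084 ± 655 in the same order of groups. Its order was that of Rab5c, but its log2 changes of -0.25 (SE 0.283, adjusted p = 0.659) and 0.31 (SE 0.283, adjusted p = 0.817) were near their standard errors. The second Rab5b probe set was below the array median on all arrays and is not described further.

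A ratio of 2 probe sets on the same array does not depend on how that array was scaled. The log2 ratio of Rab5c to Rab5a changed by -0.78 (SE 0.0943) from C57BL/6J to model mice, with no overlap of the arrays. It was higher by 1.01 (SE 0.116) in XKA-H than in model mice, again without overlap. The ratio of Rab5c to Rab5b changed by -0.34 (SE 0.348) and 0.66 (SE 0.404), and its groups overlapped in both comparisons. Both ratios contain Rab5c, on which the genes were chosen, so they restate its values on another scale, and the ratios were not tested against each other.

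Of the AP2 subunits, Ap2b1, the beta chain that binds clathrin, followed Rab5c. Its brightest probe set, 1452292_at, read 7091, 5163, 5651, 5583 and 5251 in C57BL/6J replicates 1 to 5. It read 4429, 2822, 3701, 3228 and 2229 in the model replicates, and 7398, 6965, 6644, 5045 and 4885 in the XKA-H replicates. Every model array was again below every other array, and the XKA-H and C57BL/6J arrays overlapped. Means were 5748 ± 779, 3282 ± 839 and 6187 ± 1149 for C57BL/6J, model and XKA-H mice (SD, n = 5). The log2 change was -0.84 (SE 0.186), or 0.56 of the normal signal, between model and C57BL/6J mice. It was 0.93 (SE 0.186), or 1.91-fold, between XKA-H and model mice, and 0.10 (95% interval -0.294 to 0.485) between XKA-H and C57BL/6J mice.

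The probe sets of Ap2b1 did not read alike. A second one, 1427077_a_at, was above the array median on all 15 arrays and averaged 2330 ± 266, 2560 ± 580 and 2284 ± 514 for C57BL/6J, model and XKA-H mice. Its log2 changes were 0.11 (SE 0.211) between model and C57BL/6J mice and -0.16 (SE 0.211) between XKA-H and model mice, opposite in sign to those of 1452292_at. Within each array, the log2 ratio of 1452292_at to 1427077_a_at changed by -0.95 (SE 0.0792) and then by 1.09 (SE 0.0851), without overlap of the groups in either comparison. This ratio contains 1452292_at, whose values gave the pattern on which Ap2b1 was chosen, so it largely restates them on another scale. The dimmest probe set, 1458971_at, was above the array median on 5 arrays only and changed by -0.98 (SE 0.48) and 1.11 (SE 0.48). The description of Ap2b1 as low in the model group therefore rests on 1452292_at. The array annotation gives the same source sequence for 1452292_at and 1427077_a_at, and which transcripts each probe set detects was not tested.

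**Figure D2:**
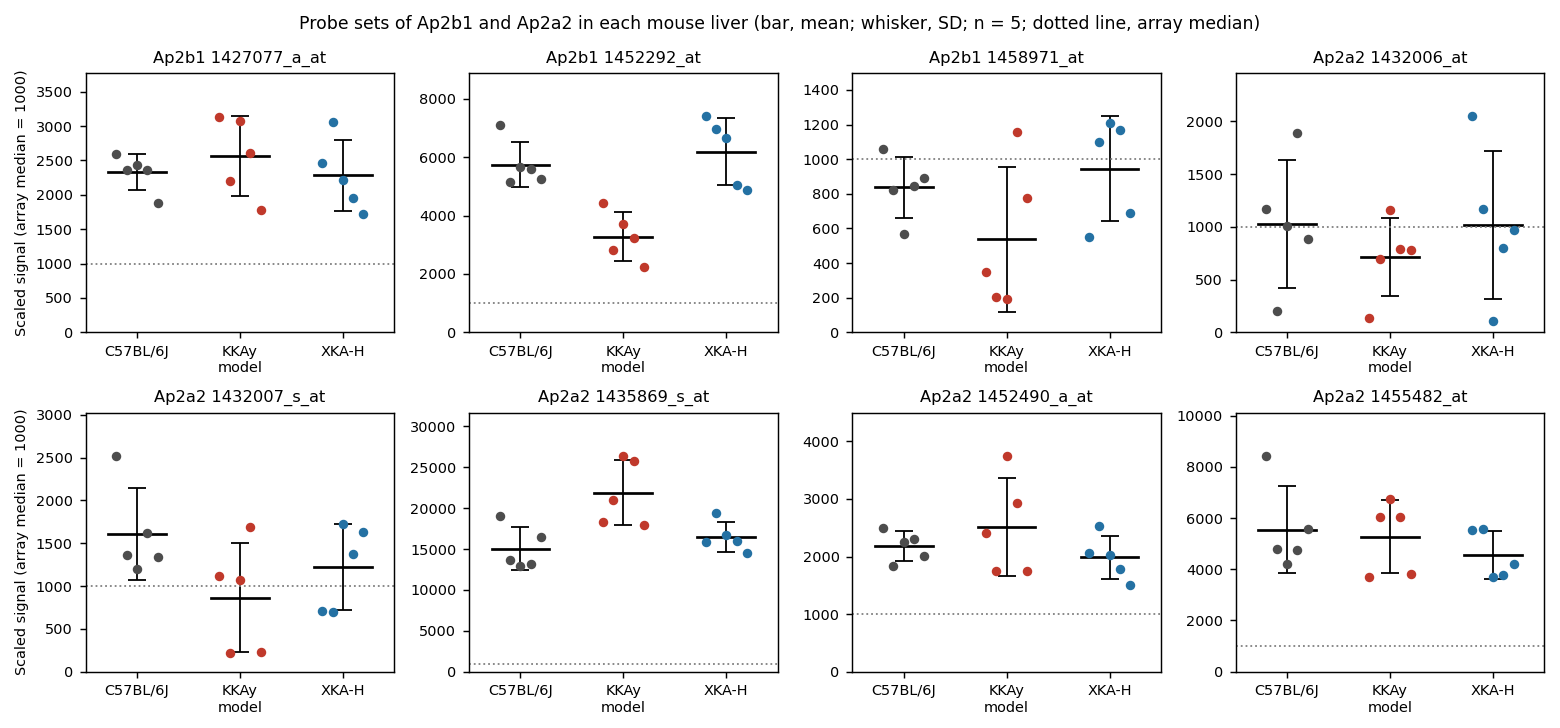
Scaled signal (y axis, array median = 1000, linear from 0) of the 3 probe sets of Ap2b1 and the 5 of Ap2a2 in each liver, by group on the x axis. Points are mice, bars are means, whiskers are SDs of 5 mice and the dotted line is the array median. Within Ap2b1, 1452292_at read 3282 in the model group against 5748 in C57BL/6J mice, while 1427077_a_at read 2560 there against 2330 in C57BL/6J mice, and within Ap2a2 the high model values were those of 1435869_s_at.

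Ap2m1, the mu chain that binds tyrosine-based sorting signals in receptor tails, was higher in model than in C57BL/6J livers. Its signals were 13063, 15472, 9748, 10195 and 13412 in C57BL/6J replicates 1 to 5 and 25684, 20615, 24808, 25006 and 16928 in the model replicates. The XKA-H replicates read 23815, 28089, 19598, 16431 and 11154. All model arrays were above all C57BL/6J arrays, as for 8.17% of all genes, whereas the XKA-H arrays spread from the C57BL/6J range to above the highest model array. Ap2m1 rose by a log2 change of 0.87 (SE 0.203, 1.83-fold, adjusted p = 0.0069) in the model group. From model to XKA-H mice the change was -0.24 (95% interval -0.667 to 0.183, adjusted p = 0.795). Between XKA-H and C57BL/6J mice it was 0.63 (SE 0.203, adjusted p = 0.0673), and without XKA-H replicate 5, which read lowest, it was 0.82 (adjusted p = 0.00614).

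Ap2a2, 1 of the 2 alpha chains, was also higher in the model group by its brightest probe set, 1435869_s_at. It read 19079, 13632, 12904, 13169 and 16448 in C57BL/6J mice, 18326, 20999, 26412, 25763 and 17974 in model mice, and 15825, 19360, 16777, 15953 and 14464 in XKA-H mice. C57BL/6J replicate 1 lay within the model range, and the other 4 C57BL/6J arrays lay below it. The log2 change was 0.54 (SE 0.141, 1.45-fold, adjusted p = 0.0149) between model and C57BL/6J mice. From model to XKA-H mice it was -0.40 (95% interval -0.693 to -0.103, adjusted p = 0.372), and all 5 XKA-H arrays were below the model median. The rise in the model group was not past the threshold without model replicate 3 (0.47, adjusted p = 0.0501) or model replicate 4 (0.47, adjusted p = 0.0505), nor in the signals as deposited (0.35, adjusted p = 0.0732). The suffix of 1435869_s_at marks probes that may match several transcripts. The probe sets read below for Clta, Pik3r4, Becn1, Rab4a and Ap1m1 carry the same suffix. The other 4 probe sets of Ap2a2 changed by -0.50, -1.29, 0.15 and -0.07 and did not pass the test.

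Ap2a1, the other alpha chain, and Ap2s1, the small sigma chain, did not pass the test in any of the 3 comparisons. Ap2a1 averaged 3056 ± 523, 3408 ± 895 and 3951 ± 1249 in C57BL/6J, model and XKA-H mice (SD, n = 5). Its log2 changes were 0.14 (SE 0.225, adjusted p = 0.774) in the model group and 0.20 (SE 0.225, adjusted p = 0.861) between XKA-H and model mice. Ap2s1 averaged 28736 ± 5013, 32813 ± 4078 and 29533 ± 5056. Its log2 changes were 0.20 (SE 0.144, adjusted p = 0.434) and -0.16 (SE 0.144, adjusted p = 0.815). Differences in change between the subunits were not tested.

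Within-array ratios were also taken among the subunits. The log2 ratio of Ap2m1 to Ap2b1 was 1.71 (SE 0.175) higher in model than in C57BL/6J mice and changed by -1.17 (SE 0.153) from model to XKA-H mice, with no overlap of arrays in either comparison. The ratio of Ap2a2 to Ap2b1 changed by 1.38 (SE 0.197) and -1.33 (SE 0.205), also without overlap. Both ratios contain Ap2b1, on which the genes were chosen. The ratio of Ap2m1 to Ap2s1 does not, but it too was added after the values were seen and restates the changes of these 2 genes. This ratio was 0.67 (SE 0.0981) higher in the model group without overlap and changed by -0.08 (SE 0.181) with overlap after XKA.

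The clathrin chains did not pass the test in any of the 3 comparisons. Cltc, the heavy chain that forms the legs of the triskelion, averaged 85211 ± 11986, 91471 ± 15475 and 84229 ± 16165 in C57BL/6J, model and XKA-H mice (SD, n = 5). Its log2 changes were 0.10 (95% interval -0.224 to 0.419, adjusted p = 0.76) and -0.13 (95% interval -0.447 to 0.196, adjusted p = 0.878). Clta, a light chain that regulates coat assembly, averaged 111684 ± 13177, 120472 ± 17106 and 114952 ± 24909. Its log2 changes were 0.11 (95% interval -0.224 to 0.434, adjusted p = 0.745) and -0.08 (95% interval -0.414 to 0.245, adjusted p = 0.929). The groups overlapped for both genes. Between model and C57BL/6J mice both log2 changes were positive after median scaling and negative in the signals as deposited (-0.0954 for Cltc and -0.0877 for Clta) and after quantile normalization (-0.0957 and -0.0941).

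**Figure D3:**
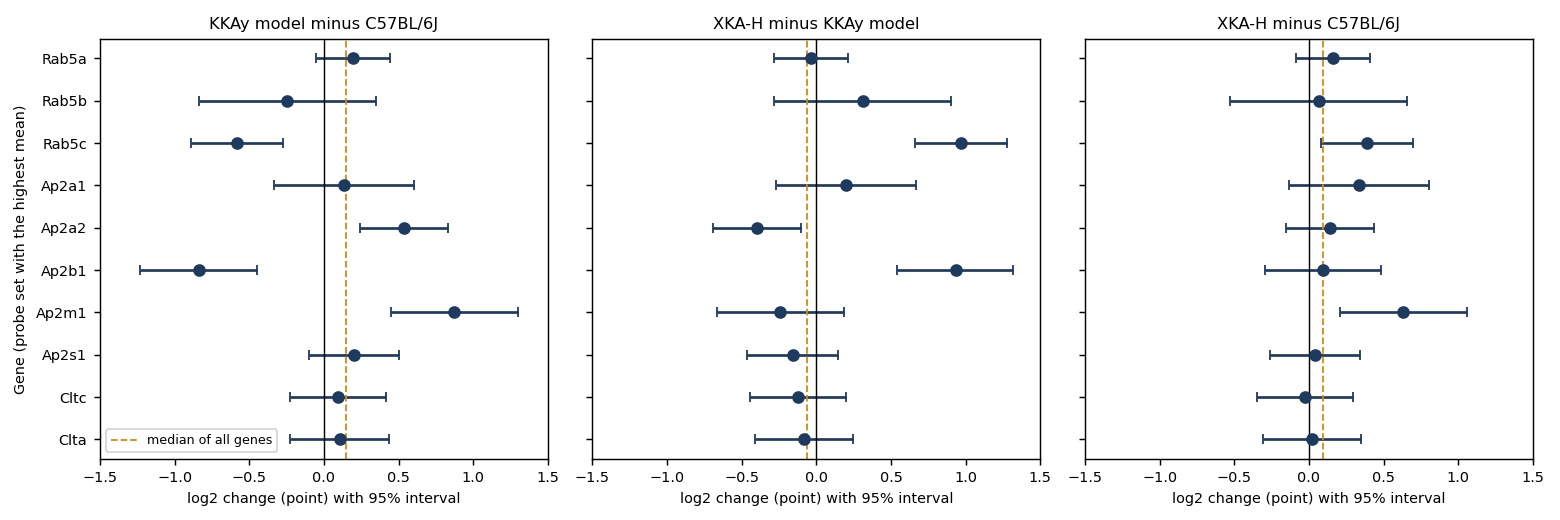
Log2 change (x axis) of the 10 genes (y axis) in the 3 comparisons, with 95% intervals as whiskers and the median of all 18193 genes as a dashed line. Rab5c and Ap2b1, on which the group was chosen, lay at -0.58 and -0.84 in the first panel and at 0.97 and 0.93 in the second, and Ap2m1 at 0.87 and Ap2a2 at 0.54 were the genes to the right in the first panel.

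Between model and C57BL/6J mice 2 of the 10 genes were called higher (Ap2m1 and Ap2a2) against 10.5% of all genes, and 2 were called lower (Rab5c and Ap2b1) against 2.36% of all genes. Between XKA-H and model mice 2 were called higher (Rab5c and Ap2b1) against 0.0660% of all genes, and 0 were called lower against 0.110%. Since Rab5c and Ap2b1 were selected on these comparisons, their counts carry no weight beside those shares. Between XKA-H and C57BL/6J mice 0 of the 10 were called in either direction, with 5.49% of all genes higher and 1.88% lower. Of the 8 genes not used for the choice, the lowest adjusted p between XKA-H and model mice was 0.372.

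Over probe sets, 4 of the 20 were called between model and C57BL/6J mice (10.1% of all probe sets), 2 between XKA-H and model mice (0.117%) and 0 between XKA-H and C57BL/6J mice (5.71%). These were the brightest probe sets of the same genes. The count of 2 genes between XKA-H and model mice fell to 1 when any array was left out other than model replicate 1 or C57BL/6J replicate 1, because Ap2b1 no longer passed in 13 of the 15 fits. Its log2 change ranged from 0.80 to 1.05 over the 15 fits, and that of Rab5c from 0.87 to 1.06. Both genes were selected on this comparison, so these ranges say nothing of their stability.

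The median of all genes moved too, by 0.148 between model and C57BL/6J mice, by -0.0609 between XKA-H and model mice and by 0.0958 between XKA-H and C57BL/6J mice after median scaling. In the signals as deposited it moved by -0.0447 in the first comparison. Relative to the median of all genes, the changes between model and C57BL/6J mice were -0.73 for Rab5c, -0.99 for Ap2b1, 0.73 for Ap2m1 and 0.39 for Ap2a2. The median over the 10 genes was 0.12 in that comparison and -0.06 between XKA-H and model mice, both near those of all genes.

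Some arrays read low across the group. Model replicate 5 was the lowest model array for 8 of the 10 genes, XKA-H replicate 5 was the lowest of its group for 6 and C57BL/6J replicate 3 for 6. These were the arrays with the highest deposited medians of their groups, 162, 161 and 182, and the part of array scaling in their low values was not tested. Without model replicate 5 the log2 changes between model and C57BL/6J mice were -0.48 for Rab5c and -0.71 for Ap2b1, and those between XKA-H and model mice were 0.87 and 0.80.

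The reverse rate sets the distance from model to XKA-H against the distance from model to C57BL/6J, so that a value of 1 is a full return to the normal mean. Rab5c and Ap2b1 were chosen on both of these distances, so their reverse rates restate that choice, and the ranges are no measure of stability. The rate was 1.91 for Rab5c, with a range of 1.65 to 2.39 when each array was left out. Its XKA-H mean was above the normal mean, a difference that was not called. The rate was 1.18 for Ap2b1 (1.06 to 1.36) and 0.791 for Ap2a2 (0.69 to 0.897), whose change from model to XKA-H was not called (limma adjusted p = 0.372). For Ap2m1 it was 0.273 and ranged from 0.0611, with XKA-H replicate 5 left out, to 0.475, with replicate 2 of that group left out. For the other 6 genes the 95% interval of the change between model and C57BL/6J mice included 0, and their reverse rates are not given.

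Across the 15 livers the signals of Rab5c and Ap2b1 ran together, with Pearson r 0.878 and Spearman rho 0.843, which include the group differences by which both were chosen. After the group means were subtracted r was 0.667. Among the 11211 other genes with a mean above the array median, Ap2b1 ranked 3 by its r with Rab5c, after Retreg3 (r 0.912), a reticulophagy regulator that also lies on chromosome 11, and Pabpn1 (r 0.91), a nuclear poly(A)-binding protein. Fgf1 (r 0.875) and Vapb (r 0.861) followed. After the group means were subtracted, Retreg3, Pabpn1, Fgf1 and Vapb gave r with Rab5c of 0.689, 0.695, 0.656 and 0.789. The 0.667 of Ap2b1 lay within the range of these values. The genes most like Ap2b1 were Rab5c, Anp32a (r 0.851), Retreg3 (r 0.807), Ogt (r 0.806), which attaches N-acetylglucosamine to proteins, and Prpf39 (r 0.803). Without the group means, Anp32a, Retreg3, Ogt and Prpf39 gave r with Ap2b1 of 0.514, 0.456, 0.586 and 0.44. All these correlations share the same 15 arrays and their scaling.

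**Figure D4:**
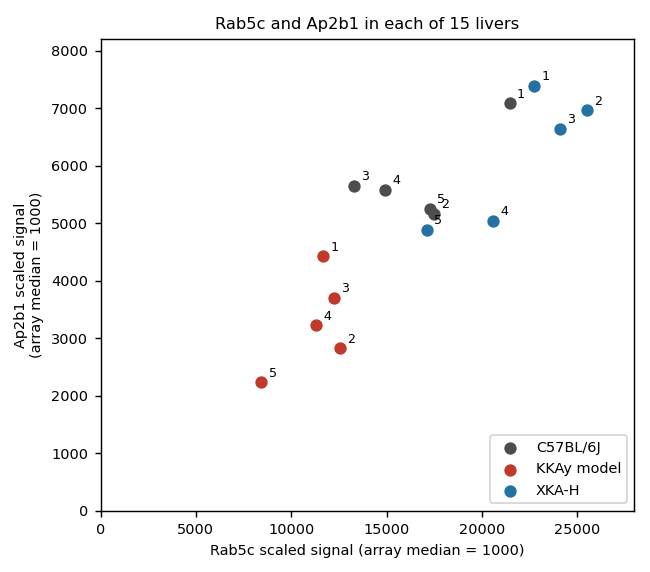
Scaled signal of Rab5c (x axis) and of Ap2b1 probe set 1452292_at (y axis) in each of 15 livers, both with an array median of 1000 and axes from 0. Points are mice, coloured by group and labelled with the replicate number. The 5 model livers lie at the lower left, at up to 12578 for Rab5c and 4429 for Ap2b1.

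Signals below those of all other livers in every model liver were found for 18 of the 18193 genes (0.0989%), Rab5c and Ap2b1 among them. Over all genes, 5 were called lower in the model group and higher after XKA, namely Rab5c, Ap2b1, Anp32a, Gkn1 and Retreg3. They were named after their values were seen, and Retreg3 was not among the 18. Anp32a, an acidic nuclear phosphoprotein, changed by -1.26 (SE 0.208) and 1.10 (SE 0.208), and Retreg3 by -0.60 (SE 0.178) and 0.98 (SE 0.178).

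Other genes of endocytosis, on 7 lists that hold 158 genes of which 152 were measured, were compared with the 10 genes. Between model and C57BL/6J mice 19 were higher (12.5%) and 5 lower (3.29%), against 10.5% and 2.36% of all genes, and their median change was 0.139. Between XKA-H and model mice 0 of the 152 passed the limma test in either direction, with a lowest adjusted p of 0.243. At an unadjusted p under 0.05 were 8 of them, against 8.58% of all genes. Dunnett comparisons without adjustment called 5 of them, against 944 of all 18193 genes. Between XKA-H and C57BL/6J mice 11 were higher (7.24%) and 2 lower (1.32%), against 5.49% and 1.88% of all genes. The lists were written with earlier results of these data known, so their counts are a description.

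Proteins that work with AP2 and clathrin at the plasma membrane, 27 genes, held 0 calls by limma in every comparison. At an unadjusted p under 0.05 were 3 between model and C57BL/6J mice, 1 between XKA-H and model mice and 5 between XKA-H and C57BL/6J mice. In the same order 25.1%, 8.58% and 19.3% of all genes were under that p. All genes were called at 10.5% and 2.36% in the first of these comparisons and at 0.0660% and 0.110% in the second, so that 0 of 27 in the second is near the background. Of 22 genes of scission and uncoating, 2 were higher (9.09%) and 1 lower (4.55%) in the model group. Synj1, the phosphatase that removes the lipid to which AP2 binds, rose by 0.76 (SE 0.183, adjusted p = 0.00862), and Snx18, a membrane-bending sorting nexin, by 0.55 (SE 0.159, adjusted p = 0.0275), in 1 of 4 and 1 of 2 probe sets. Hspa8, the chaperone that strips clathrin from vesicles, was lower at -0.57 (SE 0.165, adjusted p = 0.027), and all 4 of its probe sets were called.

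Of 14 exchange factors and regulators of RAB5, Rin2, an exchange factor for RAB5, was the single call between model and C57BL/6J mice. It was lower at -0.79 (SE 0.24, adjusted p = 0.0347), which makes 7.14% lower and 0 higher, against 2.36% and 10.5% of all genes. Of 26 RAB5 effectors and early endosome fusion genes, 4 were higher (15.4%) and 1 lower (3.85%), against 10.5% and 2.36% of all genes. Pik3r4, the regulatory subunit of the class III phosphatidylinositol 3-kinase that makes the lipid of early endosomes, was lower at -1.12 (SE 0.193, adjusted p = 0.000554), and its signals averaged 7881 ± 1441 in C57BL/6J, 3681 ± 1017 in model and 3792 ± 528 in XKA-H mice. Becn1, another subunit of that kinase, was higher at 1.06 (SE 0.119, adjusted p = 4.86e-06), in 1 of its 5 probe sets. Vps33a, of the tethering complexes of endosomes, rose by 1.04 (SE 0.193, adjusted p = 0.00111) and Ankfy1, a RAB5 effector, by 0.62 (SE 0.166, adjusted p = 0.018), each in 1 of 2 probe sets. Between XKA-H and model mice, Pik3r4 and Becn1 changed by 0.08 (SE 0.193, adjusted p = 0.952) and -0.14 (SE 0.119, adjusted p = 0.805).

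Of 17 other endosomal RAB genes, 2 were higher (11.8%) and 0 lower in the model group, against 10.5% and 2.36% of all genes. Rab4a, of fast recycling, rose by 0.92 (SE 0.18, adjusted p = 0.00175) and Rab20 by 0.80 (SE 0.202, adjusted p = 0.0122). Of 26 genes of the other adaptors, 6 were higher (23.1%) and 1 lower (3.85%), against 10.5% and 2.36% of all genes, among them Ap3s1 (0.81, SE 0.115, adjusted p = 7.38e-05), Ap3m1 (0.75, SE 0.137, adjusted p = 0.000943), Gga2 (0.71, SE 0.17, adjusted p = 0.00862) and Ap1m1 (0.69, SE 0.163, adjusted p = 0.0078), the last a mu chain like Ap2m1. Ap3m1 was called in 1 of 4 probe sets and Ap1m1 in 1 of 2.

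Of 20 receptors whose cargo enters liver cells by endocytosis, 5 were higher (25%) and 1 lower (5%) in the model group, against 10.5% and 2.36% of all genes. All 20 had a mean above the array median, where calls were more common than over all genes. Sorl1, a sorting receptor, rose by 2.24 (SE 0.349, adjusted p = 0.000212), from 1344 ± 394 to 6293 ± 1593 (SD, n = 5), in 2 of 3 probe sets. Stab2, a hyaluronan scavenger receptor of sinusoidal endothelium, rose by 0.84 (SE 0.16, adjusted p = 0.0014), and Asgr2, a chain of the asialoglycoprotein receptor of hepatocytes, by 0.81 (SE 0.177, adjusted p = 0.00414). Fcgrt, the neonatal Fc receptor that recycles albumin and IgG, was lower at -0.82 (SE 0.117, adjusted p = 8.9e-05). None of these 4 passed the test between XKA-H and model mice, where Fcgrt changed by -0.23 (adjusted p = 0.628) and Sorl1 by -0.77 (adjusted p = 0.555).

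**Figure D5:**
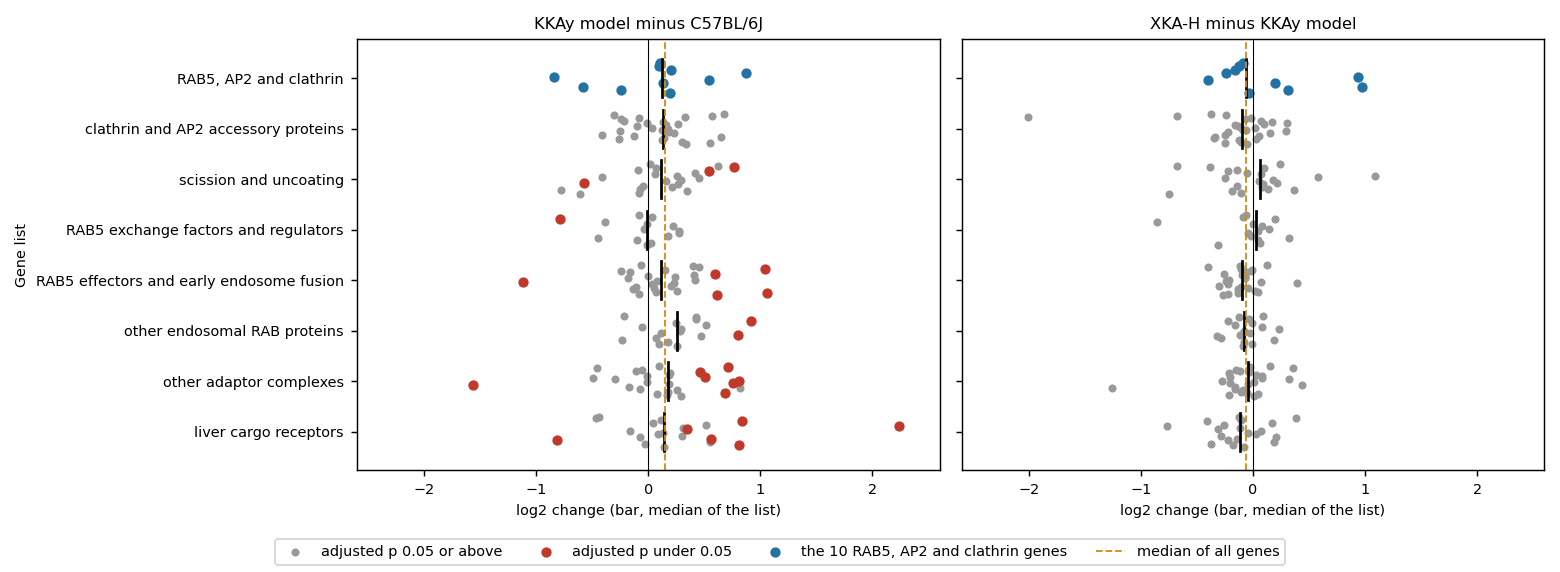
Log2 change (x axis) of each gene of the 7 endocytosis lists and of the 10 RAB5, AP2 and clathrin genes (y axis, by list) in 2 comparisons, with the list median as a black bar and the median of all genes as a dashed line. Genes with an adjusted p under 0.05 are in red, and the 10 genes are in blue whatever their p. Of the 152 listed genes 24 are red in the left panel and 0 in the right panel.

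Markers of liver cell types were summed on each array beside these results. Of 10 hepatocyte markers 8 were measured, all 8 with a mean above the array median. Of these 0 were called by limma, and the summed signal overlapped between the groups. Between model and C57BL/6J mice 2 were at an unadjusted p under 0.05, against 25.1% of all genes. Of 10 Kupffer cell markers 0 were called by limma between XKA-H and model mice, but 5 were at an unadjusted p under 0.05, against 8.58% of all genes, and the list median was -0.57 against -0.0609 for all genes. Their sums ranged from 148816 to 267094 in C57BL/6J, 170665 to 432831 in model and 134000 to 260942 in XKA-H mice. Between model and C57BL/6J mice Marco was the single Kupffer cell marker called, lower at -3.10 in 1 of 2 probe sets (10% of the list, against 2.36% of all genes). Its mean log2 signal was below the array median, with 3434 ± 1493 in C57BL/6J and 539 ± 489 in model mice (SD, n = 5). The other 9, all above the array median, had changes above 0 that did not pass, and the list median was 0.363. Of 10 sinusoidal endothelium markers Stab2 and Clec4g were higher (20%, against 10.5% of all genes). In total, 5 had changes above 0 and 5 below, and the median was -0.0324. Of 10 stellate cell markers Rgs5 was higher (10%, against 10.5% of all genes), with 5 changes above 0 and 5 below. The lowest was -1.18 for Des, which lay below the array median by its mean log2 signal and did not pass. The 5 measured adipocyte markers and the 7 measured lymphocyte markers held 0 calls, with 1 and 3 of them above the array median. The lymphocyte sum ranged from 9396 to 14040, from 12834 to 25718 and from 8785 to 14140 in C57BL/6J, model and XKA-H mice. Its largest part was Ptprc, with means of 6993, 11319 and 6893 in the same order, so the sum mainly follows that gene. Of the 7 markers 5 had changes above 0 and 2 below between model and C57BL/6J mice. Between XKA-H and model mice 2 were above 0 and 5 below. All these sums overlapped between XKA-H and model mice, and their part in the values of Rab5c and Ap2b1 was not tested.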

How the data were processed

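The values the authors deposited are linear intensities of probe sets, with 1 column for each mouse. Their methods name a scaling of each array in ArrayTrack to a median of 1000, and the deposited medians were 127 to 182, so each array was scaled to that median here. The probe summarisation is not given in sources used here. In all, of 45101 probe sets 34958 carried 1 gene symbol, 932 several and 9211 none, 34741 were matched to RefSeq by Entrez identifier, and 13 control probe sets were left out. No filter on low signals was used, and the number of arrays limits the precision.

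Scaled signals were taken to log2, and the 15 arrays were fitted together with limma 3.58.1 in R 4.3.3 (intensity trend, two-sided, Benjamini-Hochberg adjusted p under 0.05 over all genes or all probe sets). Standard errors of log2 changes had a median of 0.283. For each gene the probe set with the largest mean log2 signal was taken. The fit was tested on simulated data. Within-array ratios carry the standard error of a difference of group means. Dunnett tests, which the study used, were run with mvtnorm 1.3.3. Data were handled with the data.table package, version 1.17.8, and pandas 2.3.3, and figures drawn with matplotlib 3.10.9 in Python 3.11.15.

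The 10 genes, the lists and the marker lists were chosen with earlier results of these data known. The rule named all 10 genes, from each endocytosis list up to 4 called genes above the array median, taken by size of change, the 5 genes most like Rab5c and like Ap2b1, and the markers. Alternatives were other scalings, the mean of a gene's probe sets, the removal of dim genes, no variance trend, array weights, replicate number as a block, Dunnett tests and the removal of each array. The within-array ratios and the use of a second probe set for Ap2b1 and Ap2a2 were added after the values were seen.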

Additional observations from a re-analysis of the deposited data

Results flagged for a closer look

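C57BL/6J replicate 1 read 7091 for Ap2b1, far above the next C57BL/6J array at 5651, and the gap was 0.747 of the range of the group, past Dixon's 95% critical value for 5 samples (0.71). It was the single such case in 30 groups of 5 arrays, 10 genes in 3 groups, where chance gives about 1 in 20. Without this array the reverse rate of Ap2b1 was 1.36, against 1.18 with it.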

How the results depend on the processing

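Of 24 alternatives, Rab5c passed the threshold in 23 between model and C57BL/6J and 22 between XKA-H and model mice, and Ap2b1 in 23 and 8, which says nothing of their stability, since both were selected on these comparisons. Between model and C57BL/6J mice Dunnett comparisons without and with Benjamini-Hochberg adjustment called 3547 and 1359 genes, and 2 of the 10 genes passed with the mean of the probe sets and 1 with adjusted Dunnett comparisons. Between XKA-H and model mice the number of genes called was 63 as deposited, 113 after quantile normalization, 6 with the mean of the probe sets, 4 without a variance trend, 57 with array weights, and 944 and 0 by Dunnett comparisons without and with adjustment. Of the 10 genes 1 passed there with the mean of the probe sets, and 0 without the trend and by adjusted Dunnett comparisons. The listed endocytosis genes called there numbered 5 by Dunnett comparisons without adjustment. Between XKA-H and C57BL/6J mice 828 genes were called with the mean of the probe sets and 881 without the trend, 1 of the 10 passed among genes above the array median and 2 with array weights, and the listed genes called were 20 after quantile normalization, 5 with the mean of the probe sets and 8 without the trend. The reverse rate of Ap2a2 was 1.05 as deposited and 1.02 after quantile normalization.

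Signs turned as follows for log2 changes. Between model and C57BL/6J mice, as deposited, Ap2a1 was -0.0573, Cltc -0.0954 and Clta -0.0877. Quantile normalization gave Cltc -0.0957 and Clta -0.0941. With the mean of the probe sets Ap2a2 was -0.235, Cltc -0.202 and Clta -0.012. Between XKA-H and model mice Rab5a was 0.00091 as deposited and 0.00166 after quantile normalization. Averaged probe sets gave Rab5b -0.0116, Ap2a2 0.053, Cltc 0.035 and Clta 0.0773. Between XKA-H and C57BL/6J mice, as deposited, Rab5b was -0.0896, Ap2a2 -0.0142, Ap2b1 -0.0602, Ap2s1 -0.116 and Clta -0.135. After quantile normalization Ap2a2 was -0.00472, Ap2b1 -0.00182, Ap2s1 -0.107 and Clta -0.0999. With the mean of the probe sets Rab5b was -0.193 and Ap2a2 -0.182, and with array weights Cltc was 0.0172. The second probe set of Ap2b1 gave 0.112, -0.161 and -0.049 in the 3 comparisons, and that of Ap2a2 gave -0.0731 between model and C57BL/6J and -0.263 between XKA-H and C57BL/6J mice. The causes were not tested.

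When single arrays were left out, the genes called ranged from 1648 to 2773 between model and C57BL/6J, from 11 to 61 between XKA-H and model (XKA-H replicates 3 and 1 left out, respectively), and from 931 to 1438 between XKA-H and C57BL/6J mice. Of the 10 genes 3 to 4, 1 to 2 and 0 to 1 were called, and of the listed genes 16 (without C57BL/6J replicate 3) to 30 (without model replicate 5), 0 to 0, and 6 (without C57BL/6J replicate 3) to 15 (without XKA-H replicate 5). The log2 changes that turned sign were those between XKA-H and C57BL/6J for Rab5b (-0.0791 to 0.232), Ap2s1 (-0.0342 to 0.131), Cltc (-0.108 to 0.0895) and Clta (-0.0519 to 0.141), and between XKA-H and model for Clta (-0.177 to 0.0361). The reverse rates ranged from 1.65 to 2.39 for Rab5c, 1.06 to 1.36 for Ap2b1, 0.69 to 0.897 for Ap2a2 and 0.0611 to 0.475 for Ap2m1. Those of Rab5c and Ap2b1 were fixed in sign by the choice of these genes.

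Deviations of arrays with the same replicate number had correlations of -0.041 to 0.095, with 0 of 15 above 0.1. The highest was between XKA-H and model replicate 5. These low values do not settle whether the numbers pair the mice. With the replicate number as a block 2082, 22 and 1170 genes were called in the 3 comparisons, with 4, 2 and 0 of the 10 genes and 20, 0 and 12 of the listed genes.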
